A study of Mus musculus with 9 samples.

Results

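Dusp1, Dusp4, Dusp5, Dusp6, Dusp8, Dusp10, Dusp14 and Dusp16 encode dual-specificity phosphatases, and Spry2 and Spry4 encode Sprouty proteins. These 10 genes were chosen by name as inhibitors of mitogen-activated protein kinase (MAP kinase) signalling, with earlier results of these data known. They are 10 of the 56923 gene identifiers in the count table. Their RNA was measured by sequencing in 9 kidney libraries from wild-type mice, 3 in each of 3 groups. Sham mice had surgery without ischemia-reperfusion (IR) injury, and their treatment label reads PBS, phosphate-buffered saline. AKI_PBS mice had acute kidney injury (AKI) after IR and received PBS. AKI_PTPi_mEVs mice had the injury and received PTPi@mEVs, vesicles derived from milk and loaded with an siRNA to the tyrosine phosphatase PTP1B. All groups carry the same wild-type genotype. There is no group with injury and empty vesicles or a control siRNA among these libraries, so siRNA and vesicle cannot be told apart. The labels give no age, no time after injury and no batch, and do not say whether each library came from its own animal. The p-values therefore measure the spread between these samples.

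MAP kinases (ERK, JNK and p38) are switched on by phosphorylation of a threonine and a tyrosine in their activation loop, and dual-specificity MAP kinase phosphatases remove both phosphates. Many of these phosphatases, and the Sprouty proteins, are themselves transcribed in response to MAP kinase activity, which makes them feedback inhibitors. Sprouty proteins act further upstream, between receptor tyrosine kinases and ERK, and in the developing kidney they restrain growth factor signalling during branching of the ureteric bud.

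The start regions of Dusp1, Dusp5 and Dusp8 are printed because they held the searched motifs, and because Dusp5 and Dusp8 had the largest rises among the 10 genes in AKI_PBS. RefSeq windows (GRCm38.p6) of 250 bases before and 50 after the transcript start were found for 8 of the 10 genes. Each was searched on both strands for the cAMP response element TGACGTCA, for the AP-1 site TGANTCA and for the CArG box, the site known to bind serum response factor. The Dusp1 stretch lies at chr17:26508520-26508722 on the minus strand, the Dusp5 stretch at chr19:53528895-53529108 on the plus strand, and the Dusp8 stretch at chr7:142095285-142095534 on the minus strand. All are printed 5′ to 3′ on the gene's strand and stop before the gene's own annotated exons. Capitals mark TGACGTCA in Dusp1 and Dusp8 and CArG boxes in Dusp5.
Dusp1: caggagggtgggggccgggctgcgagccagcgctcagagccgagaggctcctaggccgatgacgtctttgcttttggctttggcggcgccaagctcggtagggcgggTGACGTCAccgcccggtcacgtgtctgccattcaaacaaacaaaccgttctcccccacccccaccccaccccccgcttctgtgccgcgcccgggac
Dusp5: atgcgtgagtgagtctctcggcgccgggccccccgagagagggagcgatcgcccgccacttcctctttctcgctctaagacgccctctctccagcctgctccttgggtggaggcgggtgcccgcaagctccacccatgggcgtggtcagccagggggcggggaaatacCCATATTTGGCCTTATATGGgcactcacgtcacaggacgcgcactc
Dusp8: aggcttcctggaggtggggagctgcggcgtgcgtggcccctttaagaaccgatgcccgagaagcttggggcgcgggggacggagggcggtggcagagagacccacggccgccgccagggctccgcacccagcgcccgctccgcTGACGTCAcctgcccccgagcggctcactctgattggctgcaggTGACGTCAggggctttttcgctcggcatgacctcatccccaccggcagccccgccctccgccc
Counted from the RefSeq start, Dusp1 held 1 TGACGTCA, beginning at -143, and Dusp8 held 2, at -107 and -63. Dusp5 held 2 CArG boxes back to back, at -82 and -72. Dusp6, Dusp10, Dusp14, Dusp16 and Spry2 held neither, and TGANTCA was in 0 of the 8 windows. The Dusp1, Dusp8, Dusp10 and Dusp14 windows lie inside their genes' annotated spans. In the Dusp14 window only 27 bases come before the gene's own exon, so the absence of motifs there mostly describes sequence inside the gene. Of all 32851 windows of this length, 1.79% held TGACGTCA, 7.81% held TGANTCA and 1.63% held a CArG box. The Dusp1, Dusp5 and Dusp8 windows were 67.0%, 66.7% and 73.3% G or C, against a median of 52.7% over all windows. The shares among windows of like G and C content were not computed. A match describes letters in a window and does not show that a factor binds there.

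Library totals lay between 9467851 and 11389479 counts, a ratio of 1.20, and 17036 genes passed the filter on low counts. Levels are CPM values, read counts relative to library size after TMM scaling. The siRNA's target gene Ptpn1 stood at 80.9, 90.5 and 98.8 CPM in sham, at 123, 148 and 170 in AKI_PBS and at 106, 106 and 94.0 in AKI_PTPi_mEVs. Against AKI_PBS it fell by 0.53 ± 0.15 on the log2 scale in AKI_PTPi_mEVs (edgeR adjusted p = 0.00862), where it stood 0.18 ± 0.15 above sham (adjusted p = 0.455). Proximal tubule markers were abundant in all groups, as the kidney label asks, with summed levels of 7277 to 9479 CPM in sham, 2416 to 4026 in AKI_PBS and 5495 to 8461 in AKI_PTPi_mEVs.

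All 10 genes were tested, and 9 reached the filter's level in every library. Dusp5 reached it in 0 of 3 sham libraries and in all 6 injured ones, so it entered through the groups in which it is high. That fixed its direction against sham, and its calls against sham add no support to the counts below. Under a stricter filter, which left Dusp5 untested, 6 of the others were higher in AKI_PBS than in sham, beside 3739 of 13411 genes tested. In AKI_PBS against sham, 7 of the 10 rose (Dusp4, Dusp5, Dusp8, Dusp10, Dusp16, Spry2 and Spry4), beside 27.8% of all tested genes. None fell with edgeR (0 of 10, and 0 at an unadjusted p under 0.05; 0 also with DESeq2 and limma voom), beside 27.9% of all tested genes. Their median log2 fold change was 1.26, against 0.03 over all genes. In AKI_PTPi_mEVs against AKI_PBS, 8 of the 10 fell (the same 7 and Dusp1), beside 25.8% of all genes, and 1 rose (Dusp14), beside 25.4%. The median was -1.14, against -0.03 over all genes. In AKI_PTPi_mEVs against sham, Dusp5, Dusp8 and Dusp14 were higher, 3 of 10 beside 7.43% of all genes, and Dusp1 was lower, 1 of 10 beside 5.79%, with a median of 0.26 against -0.01 over all genes. The first and second comparisons share the AKI_PBS libraries, and the third shares libraries with each, so the counts are not independent of one another.

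**Figure D1:**
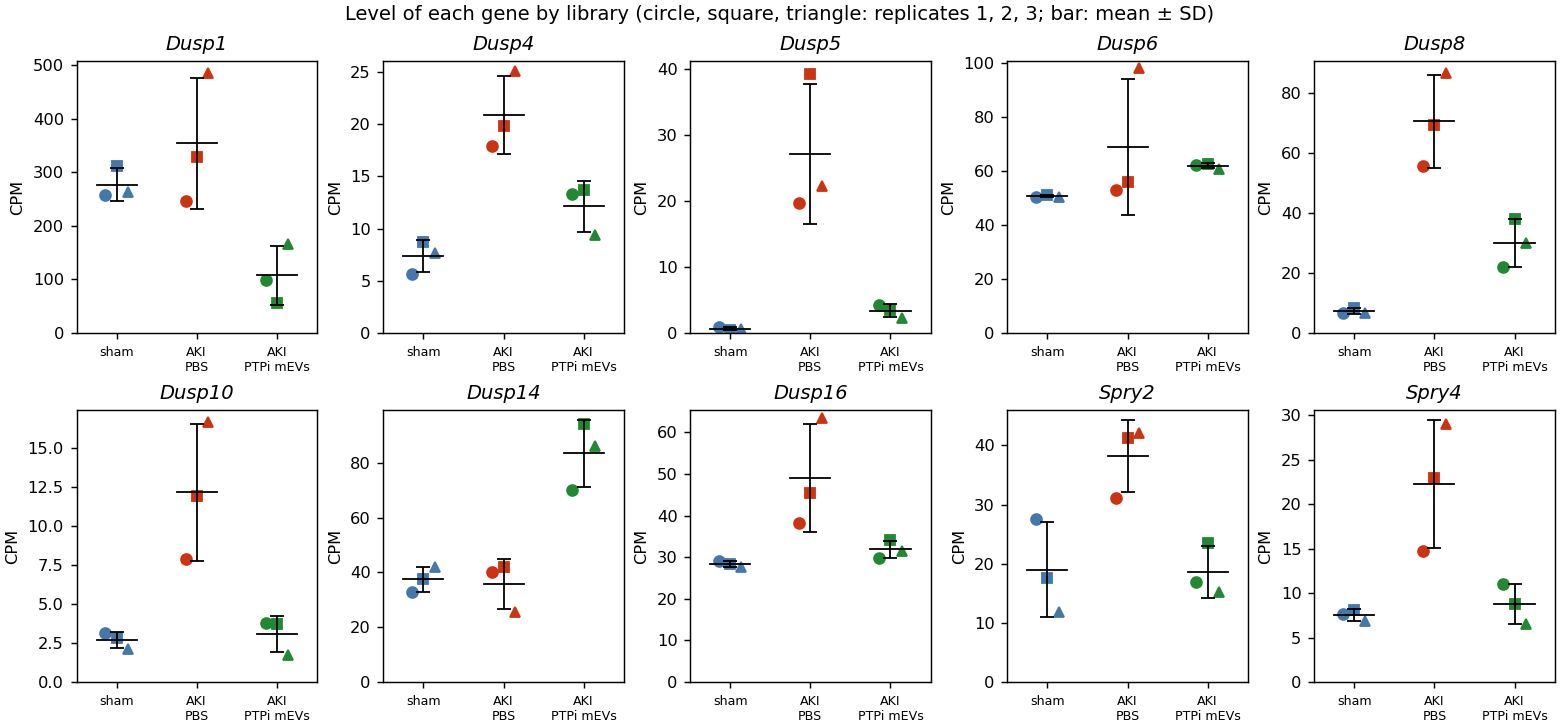
Level of each of the 10 genes in CPM (vertical axis, starting at 0) in the sham, AKI_PBS and AKI_PTPi_mEVs groups (horizontal axis). Circles, squares and triangles are replicates 1, 2 and 3, and bars show mean ± SD (n = 3). Dusp5 and Dusp8 stand far above sham in AKI_PBS, Dusp1 is lowest in AKI_PTPi_mEVs, and Dusp14 is highest there.

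Dusp1, Dusp4 and Dusp5 encode inducible nuclear phosphatases. Dusp1, which acts mainly on p38 and JNK and is also a glucocorticoid-induced gene, stood at 257, 312 and 262 CPM in sham. In AKI_PBS it stood at 246, 329 and 486 CPM and in AKI_PTPi_mEVs at 98.8, 56.7 and 167 CPM. Sham and AKI_PBS overlapped, while each AKI_PTPi_mEVs library lay below every library of the other groups. The difference between AKI_PBS and sham was 0.35 ± 0.33 on the log2 scale (adjusted p = 0.383), and 0.05 without AKI_PBS replicate 3, the highest library. In AKI_PTPi_mEVs it was 69.7% below AKI_PBS (-1.72 ± 0.34, adjusted p = 0.00148) and 61.3% below sham (-1.37 ± 0.34, adjusted p = 0.0222). The call against sham was lost when 1 library was left out: adjusted p = 0.0773 without sham replicate 2, 0.0515 without sham replicate 3 and 0.087 without AKI_PTPi_mEVs replicate 1. Among the 10 genes Dusp1 is the member that fell below sham in AKI_PTPi_mEVs without having risen in AKI_PBS.

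Dusp4, an ERK, JNK and p38 phosphatase, stood at 5.68, 8.74 and 7.62 CPM in sham, 17.9, 19.8 and 25.1 in AKI_PBS and 13.3, 13.8 and 9.34 in AKI_PTPi_mEVs. The 3 groups did not overlap, with AKI_PTPi_mEVs between the others. It rose by 1.51 ± 0.23 on the log2 scale in AKI_PBS (adjusted p = 0.000121) and, against that level, fell by 0.78 ± 0.22 in AKI_PTPi_mEVs (adjusted p = 0.00971). The latter call was lost without AKI_PTPi_mEVs replicate 3 (-0.61, adjusted p = 0.0535). The remaining difference from sham, 0.72 ± 0.23, missed the threshold (adjusted p = 0.0556) and passed it with DESeq2 (0.0344), with no filter on low counts (0.0233), without AKI_PBS replicate 3 (0.0314) and without AKI_PTPi_mEVs replicate 3 (0.0369).

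Dusp5, a nuclear phosphatase selective for ERK, was almost unread in sham: its 3 libraries held 9, 5 and 6 reads, 0.882, 0.465 and 0.610 CPM. AKI_PBS libraries held 19.7, 39.2 and 22.2 CPM and AKI_PTPi_mEVs libraries 4.22, 3.49 and 2.31 CPM. No group overlapped another, and as a ratio of the highest to the lowest library the span was the widest of the 10 genes. The rise in AKI_PBS was 40.9-fold (5.35 ± 0.38 on the log2 scale, adjusted p = 4.86e-07), resting on 20 reads in sham against 936 in AKI_PBS. Against AKI_PBS it fell by 3.0 ± 0.31 in AKI_PTPi_mEVs (adjusted p = 1.09e-05), where it was still 5.10-fold above sham (2.35 ± 0.43, adjusted p = 0.00416). The filter fixed the direction of Dusp5 against sham in both injured groups, so its adjusted p-values against sham support nothing.

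Dusp6 encodes a cytoplasmic phosphatase selective for ERK and is a widely used readout of ERK activity. Its sham libraries were nearly equal at 50.4, 51.3 and 50.4 CPM, and AKI_PBS libraries stood at 53.1, 55.9 and 98.0. AKI_PTPi_mEVs libraries again lay close together at 62.3, 62.4 and 60.8 CPM. Every injured library was above every sham library, but AKI_PBS replicate 3 stood far from the other AKI_PBS libraries and set the size of the difference. AKI_PBS against sham gave 0.45 ± 0.20 (adjusted p = 0.0707), 0.11 without AKI_PBS replicate 3 (adjusted p = 0.447), and values past the threshold of 0.60 (0.0201) without replicate 1 and 0.58 (0.038) without replicate 2. It also passed with no low-count filter (0.41, adjusted p = 0.0428) and with library totals as the scale (0.51, 0.0328). AKI_PTPi_mEVs against AKI_PBS gave -0.16 ± 0.20 (adjusted p = 0.523), and 0.19 without AKI_PBS replicate 3, so no direction was settled. AKI_PTPi_mEVs against sham gave 0.29 ± 0.20 (adjusted p = 0.37).

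Dusp8, Dusp10 and Dusp16 encode phosphatases that act on JNK and p38 in preference to ERK. Dusp8 stood at 6.66, 8.28 and 6.60 CPM in sham, 55.7, 69.5 and 86.6 in AKI_PBS and 21.8, 38.1 and 30.0 in AKI_PTPi_mEVs. The groups were fully separate, with AKI_PTPi_mEVs in the middle. The rise in AKI_PBS was 9.80-fold (3.29 ± 0.23, adjusted p = 4.73e-07), and against AKI_PBS the level fell by 1.24 ± 0.21 in AKI_PTPi_mEVs (adjusted p = 0.00039). It stayed 4.16-fold above sham in AKI_PTPi_mEVs (2.06 ± 0.23, adjusted p = 0.000282).

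Dusp10 stood at 3.14, 2.79 and 2.13 CPM in sham, 7.87, 11.9 and 16.7 in AKI_PBS and 3.76, 3.71 and 1.76 in AKI_PTPi_mEVs. AKI_PBS did not overlap the other groups, which overlapped each other. It rose by 2.17 ± 0.34 on the log2 scale in AKI_PBS (adjusted p = 0.000167) and fell by 1.97 ± 0.34 from there in AKI_PTPi_mEVs (adjusted p = 0.000415). AKI_PTPi_mEVs against sham gave 0.20 ± 0.37 (adjusted p = 0.766).

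Dusp16 moved less, from 29.0, 28.3 and 27.7 CPM in sham to 38.3, 45.5 and 63.5 in AKI_PBS, with 29.9, 34.1 and 31.6 in AKI_PTPi_mEVs. No group overlapped another, although AKI_PTPi_mEVs began just above sham. The rise in AKI_PBS was 0.79 ± 0.17 (adjusted p = 0.00188) and in AKI_PTPi_mEVs it fell by 0.62 ± 0.17 against AKI_PBS (adjusted p = 0.00911). Against sham, AKI_PTPi_mEVs differed by 0.17 ± 0.18 (adjusted p = 0.579).

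Dusp14 encodes a small atypical phosphatase that lacks the MAP kinase binding domain of the typical family members and is also known to act on TAB1, an activator of the kinase TAK1. It stood at 32.8, 37.6 and 42.1 CPM in sham, 40.3, 41.9 and 25.4 in AKI_PBS and 70.0, 94.1 and 86.1 in AKI_PTPi_mEVs. Sham and AKI_PBS overlapped, and all 3 AKI_PTPi_mEVs libraries lay above every other library. AKI_PBS against sham gave -0.06 ± 0.19 (adjusted p = 0.798), a sign that turned with library totals (0.03). In AKI_PTPi_mEVs it was 2.32-fold above AKI_PBS (1.22 ± 0.19, adjusted p = 0.000232) and 2.22-fold above sham (1.15 ± 0.19, adjusted p = 0.00276).

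Spry2 and Spry4 encode inhibitors of signalling from receptor tyrosine kinases through Ras to ERK. Spry2 was the most variable gene in sham, at 27.6, 17.6 and 11.8 CPM, and stood at 31.1, 41.3 and 42.2 in AKI_PBS and 16.9, 23.6 and 15.3 in AKI_PTPi_mEVs. AKI_PBS lay above the other groups, whose ranges overlapped. It rose by 1.01 ± 0.27 in AKI_PBS (adjusted p = 0.00635) and in AKI_PTPi_mEVs it fell by 1.04 ± 0.27 against AKI_PBS (adjusted p = 0.00604). The difference from sham in AKI_PTPi_mEVs was -0.03 ± 0.27 (adjusted p = 0.955), with a sign that depended on the tool.

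Spry4 stood at 7.64, 8.09 and 6.81 CPM in sham, 14.8, 23.0 and 29.1 in AKI_PBS and 11.0, 8.73 and 6.49 in AKI_PTPi_mEVs. AKI_PBS again lay above both other groups. The rise was 1.57 ± 0.26 on the log2 scale (adjusted p = 0.000271), in AKI_PTPi_mEVs it fell by 1.34 ± 0.26 against AKI_PBS (adjusted p = 0.000942), and AKI_PTPi_mEVs against sham gave 0.22 ± 0.27 (adjusted p = 0.637).

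**Figure D2:**
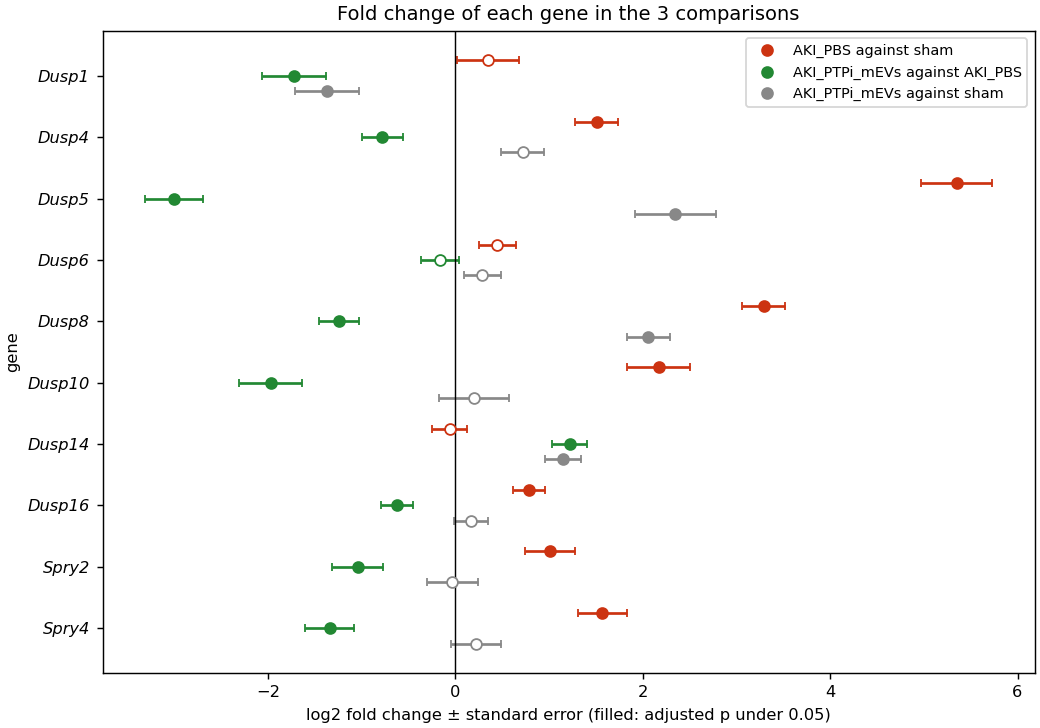
Log2 fold change (horizontal axis) of each of the 10 genes (vertical axis) in the 3 comparisons, with bars of 1 standard error. Filled points passed an edgeR adjusted p under 0.05. Dusp5 has the largest rise in AKI_PBS (5.35), in a direction that the low-count filter fixed. Dusp14 is the gene to the right of 0 in AKI_PTPi_mEVs against AKI_PBS (1.22).

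Across the 10 genes, AKI_PBS replicate 3 was the highest AKI_PBS library for 8 and the lowest for 1 (Dusp14), while AKI_PBS replicate 1 was the lowest for 9. The shares over all tested genes were not computed, so these counts do not show an order particular to the 10 genes. Replicate 3 also stood apart on the third principal component of all genes, at -44.1 against 28.3 and 20.6 for the others of its group. Without it, AKI_PBS against sham still called 7 members higher, and AKI_PTPi_mEVs against AKI_PBS still called 8 lower. The labels name no batch that would set this library apart.

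**Figure D3:**
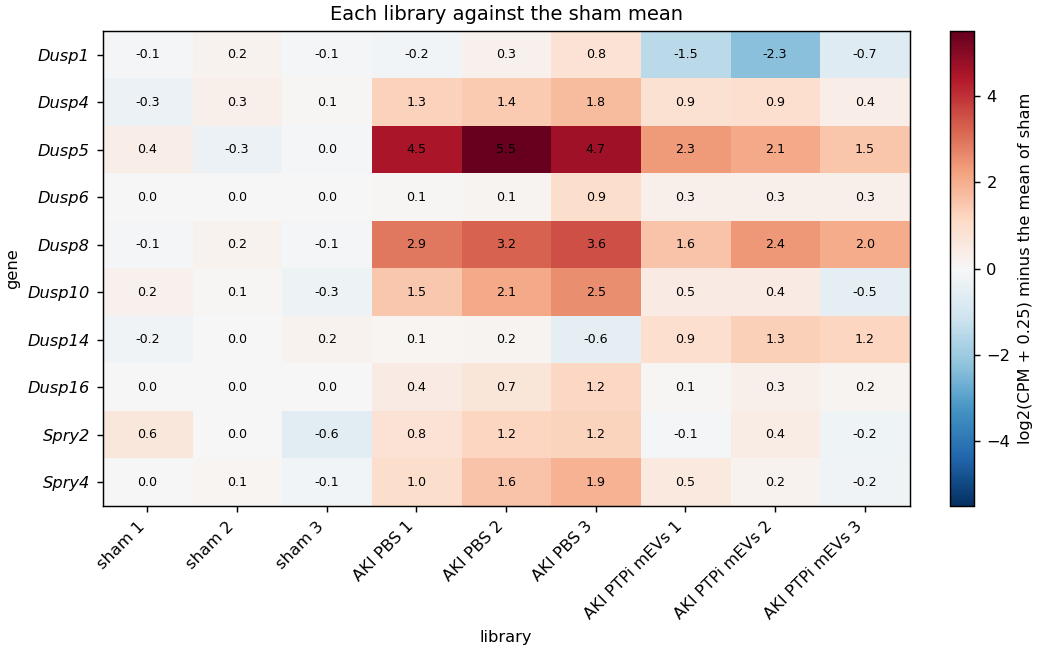
Log2(CPM + 0.25) of each gene (rows) in each library (columns) minus the mean of the 3 sham libraries; red is above and blue below the sham mean. The AKI_PBS columns are red for most genes, with replicate 3 the deepest for 8 of 10 within its group, and Dusp1 is blue in the AKI_PTPi_mEVs columns.

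Levels between genes can be compared per length, here as mean CPM per kilobase of annotated exon. In sham, Dusp1 was highest at 83.7 ± 9.19 (SD, n = 3), Dusp14 stood at 19.3 ± 2.37, Dusp6 at 16.2 ± 0.16 and Spry2 at 9.10 ± 3.84. Below them were Dusp16 at 3.63, Dusp4 at 2.68, Spry4 at 1.58, Dusp8 at 1.47, Dusp10 at 0.883 and Dusp5 at 0.264. The ranges of Spry4 (1.43 to 1.70) and Dusp8 (1.36 to 1.70) overlapped, so that pair has no settled order. In AKI_PBS Dusp8 reached 14.5 and Dusp5 10.9, with Dusp4 at 7.64 and Dusp16 at 6.30. The range of Dusp5 (7.97 to 15.9) overlapped those of Dusp8 (11.4 to 17.8), Dusp4 (6.53 to 9.16) and Dusp16 (4.91 to 8.15), so its place among them is not settled. In AKI_PTPi_mEVs the mean of Dusp14, 42.9 ± 6.31, was above that of Dusp1, 32.4 ± 16.7, but their ranges overlapped (36.0 to 48.4 and 17.1 to 50.3). Dusp1 made up 63.3% of the summed mean CPM of the 10 genes in sham, 50.6% in AKI_PBS and 29.8% in AKI_PTPi_mEVs.

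Beside these changes, markers of other cells moved too. Neutrophil, proximal tubule and red blood cell lists are given here as examples. Lists for other tubule segments, podocytes, endothelium, fibroblasts and macrophages also held called genes, some higher and some lower. The summed level of 6 neutrophil markers was 0.406 to 0.837 CPM in sham, 11.0 to 23.7 in AKI_PBS and 1.74 to 2.18 in AKI_PTPi_mEVs. S100a8 and Retnlg had 0 reads in sham and Ngp had 0 in AKI_PTPi_mEVs. In the test 6 of 6 were higher in AKI_PBS than in sham and 5 of 6 were lower in AKI_PTPi_mEVs than in AKI_PBS. Since 5 of the 6 reached the filter's level in AKI_PBS alone, and the sixth in no sham library, the filter fixed these directions and the counts support nothing. Of 5 proximal tubule markers, 4 were lower in AKI_PBS than in sham, beside 27.9% of all tested genes. In AKI_PTPi_mEVs 4 were higher than in AKI_PBS, beside 25.4%. Red blood cell markers summed to 71.4 to 93.7 CPM in sham, 88.0 to 199 in AKI_PBS and 15.5 to 38.3 in AKI_PTPi_mEVs. In AKI_PBS against sham 0 of 3 were called higher and 0 lower, beside 27.8% and 27.9% of all tested genes. In AKI_PTPi_mEVs 3 of 3 were lower than in AKI_PBS, beside 25.8%, although the libraries of Alas2 overlapped. Against sham 2 of 3 were lower in AKI_PTPi_mEVs, beside 5.79%. The part of these cells in the changes of the 10 genes was not tested. In whole kidney, fewer cells of a type and less RNA per cell cannot be told apart.

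The annotation places Dusp1 at chr17:26505590-26562128, Dusp5 at chr19:53529109-53542431, Dusp8 at chr7:142079490-142095843 and Dusp14 at chr11:84048041-84069261 (GENCODE M21 on GRCm38). Dusp6 lies at chr10:99263231-99267489, Dusp4 at chr8:34807297-34819894, Dusp10 at chr1:184013302-184075636, Dusp16 at chr6:134715468-134792625 and Spry2 at chr14:105891947-105896819. Dusp1, Dusp5, Dusp8, Dusp10, Dusp16 and Spry4 overlap at least 1 other annotated gene. Examples are Ergic1 on the strand opposite Dusp1, and AC122252.1 and AC122252.4 on the same strand as Dusp1. Dusp4, Dusp6, Dusp14 and Spry2 overlap none. Whether the counting used strand is not given in the sources used here. These overlaps are of whole gene spans, introns included, and overlap of exons was not determined. Whether reads from overlapping genes entered the counts of the first set is therefore not settled.

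Feedback regulators are often short-lived messages, and AU-rich elements in the 3′ UTR are known to mark such messages. In the GENCODE M21 transcripts, described after the values were seen, the 3′ UTRs of 9 of the 10 genes held the pentamer ATTTA at least once, against 65.2% of 13729 tested genes with an annotated 3′ UTR and 81.6% of those with at least 500 bases of it, as all 10 have. Dusp14 held 0 in 576 bases, and Dusp1 held 4 in 690 bases (5.80 per kilobase, against a median of 1.18). The longer TTATTTATT occurred 2 times in Dusp1, 1 time in Dusp8, in 7.02% of those genes and in 9.47% of those with at least 500 bases. No message stability was measured, and 10 genes are too few to relate the motif to a change.

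The 3 remaining typical MAP kinase phosphatases split. In AKI_PBS against sham 2 were higher (Dusp2 and Dusp7) and Dusp9 was lower, beside 27.8% and 27.9% of all tested genes. In AKI_PTPi_mEVs against AKI_PBS the directions were opposite, beside 25.8% of all tested genes lower and 25.4% higher. Dusp2 reached the filter's level in AKI_PBS alone and so had to differ. Dusp7, a cytoplasmic ERK phosphatase, rose by 1.22 ± 0.18 in AKI_PBS (adjusted p = 0.000103) and fell by 1.22 ± 0.18 from there in AKI_PTPi_mEVs (0.000142). Dusp2, best known from blood cells, stood at 0.102 to 0.392 CPM in sham, 2.03 to 3.0 in AKI_PBS and 0.0918 to 0.440 in AKI_PTPi_mEVs. Dusp9, which also acts on ERK, went the other way: 9.70, 15.7 and 12.1 CPM in sham, 2.16, 2.23 and 3.27 in AKI_PBS and 13.5, 10.4 and 7.91 in AKI_PTPi_mEVs. Dusp9 fell by 2.29 ± 0.29 in AKI_PBS (adjusted p = 2.88e-05), and AKI_PTPi_mEVs was 2.05 ± 0.29 higher than AKI_PBS (9.46e-05).

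Other dual-specificity phosphatases, most of which are not MAP kinase feedback genes, had a median of -0.77 in AKI_PBS against sham, with 1 of 12 tested higher and 7 lower, beside 27.8% and 27.9% of all tested genes. Against AKI_PBS, 5 were higher and 1 was lower in AKI_PTPi_mEVs (median 0.49), beside 25.4% and 25.8%. Styxl1 reached the filter's level in 0 of 3 AKI_PBS libraries and entered through the other groups. That fixed its direction against sham, so its lower call in AKI_PBS adds no support to the count of 7. Dusp15 had means of 27.8 ± 6.11 (SD, n = 3) in sham, 2.66 ± 0.539 in AKI_PBS and 7.98 ± 3.04 CPM in AKI_PTPi_mEVs, where its log2 difference from sham was -1.79 ± 0.28 (adjusted p = 0.00184). Dusp19 fell by 1.70 ± 0.30 in AKI_PBS and was 1.59 ± 0.31 above that level in AKI_PTPi_mEVs (adjusted p = 0.000457 and 0.000914). Dusp23 fell by 1.29 ± 0.27 in AKI_PBS (0.00128), and its 0.48 ± 0.27 in AKI_PTPi_mEVs against AKI_PBS missed the threshold (0.15). Styx, a catalytically inactive relative, was 0.74 ± 0.16 higher in AKI_PBS than in sham (0.00144) and fell by 0.76 ± 0.16 against AKI_PBS in AKI_PTPi_mEVs (0.00138).

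The other Sprouty and Spred genes, which inhibit the same Ras-to-ERK step, took the directions of Spry2 and Spry4: 4 of 4 tested were higher in AKI_PBS (median 1.71), beside 27.8% of all genes, and 4 of 4 lower in AKI_PTPi_mEVs than in AKI_PBS (median -1.40), beside 25.8%. Spry1, the Sprouty best known from kidney development, stood at 10.7, 10.5 and 6.40 CPM in sham, 29.9, 37.1 and 39.7 in AKI_PBS and 16.2, 19.1 and 9.89 in AKI_PTPi_mEVs. It rose by 1.95 ± 0.25 (adjusted p = 4.13e-05) and in AKI_PTPi_mEVs it fell by 1.24 ± 0.25 against AKI_PBS (0.00114). Spred3 had the largest rise of the family, 3.71 ± 0.35 (3.56e-06), Spred2 rose by 1.47 ± 0.24 (0.000262) and Spred1 by 1.08 ± 0.19 (0.000391).

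A further list holds regulators of signalling from receptor tyrosine kinases through Ras to ERK. It counted 7 of 9 higher in AKI_PBS (median 0.70), beside 27.8% of all genes. In AKI_PTPi_mEVs against AKI_PBS 6 of 9 were lower (median -0.67), beside 25.8%. Trib1, a pseudokinase scaffold, rose by 2.03 ± 0.19 in AKI_PBS (adjusted p = 2.88e-06), and Cblb, a ubiquitin ligase for activated receptors, by 1.80 ± 0.23 (3.44e-05). Errfi1, an inhibitor of the EGF receptor kinase, rose by 1.42 ± 0.23 (0.000188) and Nf1, a Ras GTPase-activating protein, by 0.60 ± 0.13 (0.00225). In AKI_PTPi_mEVs against AKI_PBS these genes stood at -1.65 ± 0.18, -1.84 ± 0.23, -1.77 ± 0.23 and -0.67 ± 0.13, all past the threshold.

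The kinase cascades that the 10 genes restrain changed at the RNA level as well, with smaller medians. Of 19 ERK cascade genes, 11 were higher and 1 lower in AKI_PBS (57.9% and 5.26%, beside 27.8% and 27.9% of all tested genes; median 0.52). Between the injured groups, AKI_PTPi_mEVs had 11 lower and 2 higher than AKI_PBS (57.9% and 10.5%, beside 25.8% and 25.4%; median -0.51). Nras rose by 1.63 ± 0.16 (adjusted p = 3.51e-06), the adaptor Grb2 by 0.95 ± 0.14 (7.68e-05) and the ERK-activated kinase Rps6ka3 by 1.09 ± 0.16 (8.84e-05). Of 20 JNK and p38 cascade genes, 12 were higher and 2 lower in AKI_PBS (median 0.74), beside the same 27.8% and 27.9% of all genes. In AKI_PTPi_mEVs against AKI_PBS 11 were lower and 1 higher (median -0.50), beside 25.8% and 25.4%. The p38 substrate kinase Mapkapk2 rose by 2.16 ± 0.15 (4.49e-07), the stress-induced Gadd45a by 2.96 ± 0.29 (4.83e-06) and the p38 isoform gene Mapk13 by 1.70 ± 0.20 (1.51e-05). Map3k1, a kinase upstream of JNK, rose by 1.31 ± 0.20 (0.000161), while AKI_PTPi_mEVs against AKI_PBS gave -0.11 ± 0.20 (0.653) and against sham 1.20 ± 0.20 (0.00305).

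Genes known as transcriptional outputs of ERK had a median of 2.78 in AKI_PBS against sham, with 10 of 12 tested higher and 2 lower, beside 27.8% and 27.9% of all tested genes. Fosl1 and Egr2 reached the filter's level in no sham library and entered through the injured groups. The filter fixed their direction against sham, so they add no support to the count of 10 or to the median. In AKI_PTPi_mEVs against AKI_PBS 9 were lower and 1 higher (median -1.66), beside 25.8% and 25.4%. Fosl1, a subunit of AP-1, had 0, 0 and 1 reads in the sham libraries against 617 over AKI_PBS. The pooled ratio was 550, with a 95% exact counting interval of 98.3 to 21800. That interval covers the sampling of reads alone and leaves out the spread between libraries. In AKI_PTPi_mEVs Fosl1 stood at 1.56, 1.86 and 0.550 CPM, against 15.6, 19.8 and 18.2 in AKI_PBS. The receptor gene Epha2 rose by 2.75 ± 0.21 (adjusted p = 8.22e-07) and the ETS factor gene Etv4 by 3.92 ± 0.37 (3.45e-06), and in AKI_PTPi_mEVs against AKI_PBS they stood at -1.86 ± 0.20 and -2.80 ± 0.34 (1.41e-05 and 3.17e-05). Ccnd1, encoding cyclin D1, went against the list: 274, 271 and 232 CPM in sham, 101, 136 and 108 in AKI_PBS and 332, 383 and 448 in AKI_PTPi_mEVs. It was 0.58 ± 0.16 above sham in AKI_PTPi_mEVs (adjusted p = 0.0287).

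EGF and FGF ligands and receptors are the upstream inputs. Of 14 tested, 4 were higher and 5 lower in AKI_PBS (28.6% and 35.7%, beside 27.8% and 27.9% of all tested genes; median 0.02). Between the injured groups, 3 were higher and 3 lower in AKI_PTPi_mEVs (21.4% each, beside 25.4% and 25.8%; median -0.13). These shares are near those of all genes and are no result about the list. The ligand gene Hbegf rose by 1.80 ± 0.27 (adjusted p = 0.000167), the receptor genes Erbb3 and Fgfr1 by 1.0 ± 0.22 (0.00171) and 0.90 ± 0.16 (0.000458), while Fgf1 fell by 1.57 ± 0.15 (2.82e-06). In AKI_PTPi_mEVs against AKI_PBS these 4 genes stood at -1.27 ± 0.27, -1.59 ± 0.22, -0.71 ± 0.16 and 1.5 ± 0.15, all past the threshold.

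**Figure D4:**
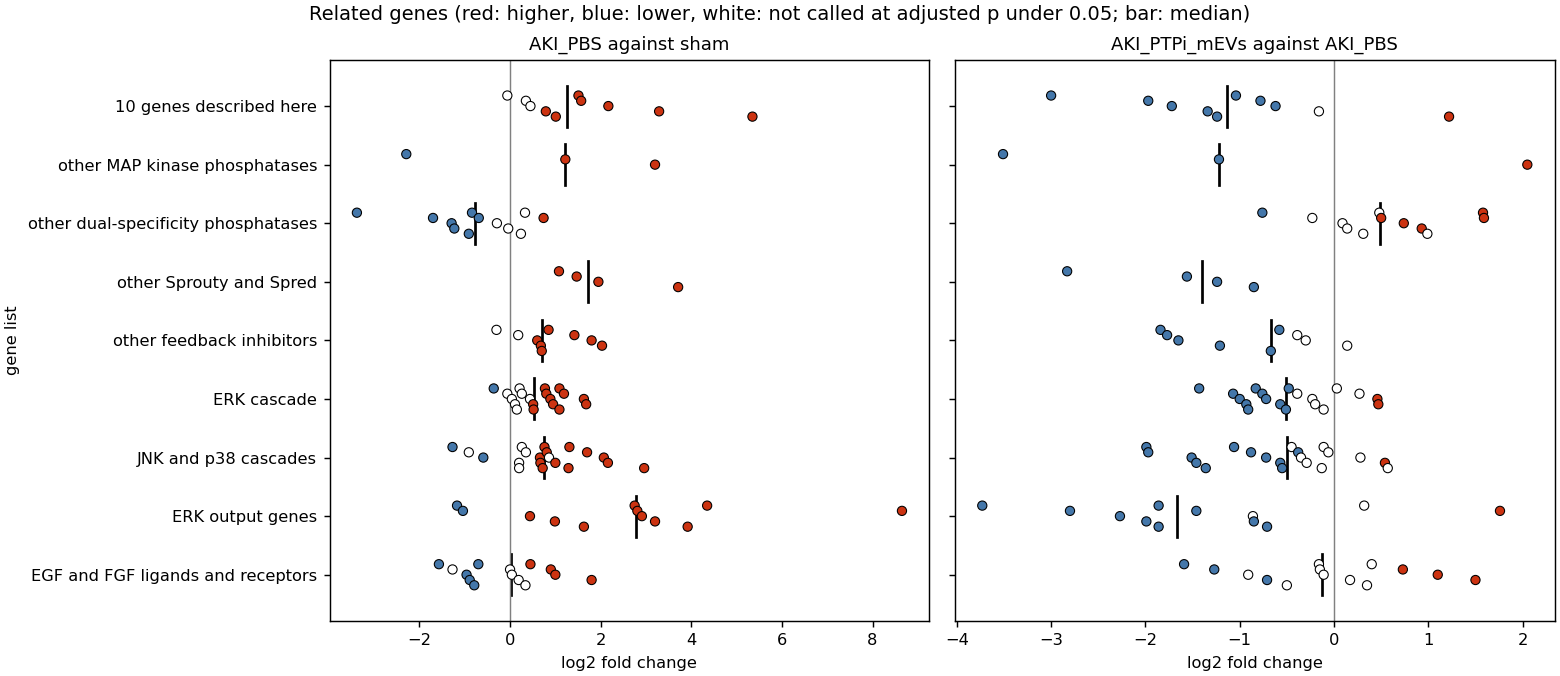
Log2 fold change (horizontal axis) of each tested gene in the 10 genes described here and in 8 related lists (vertical axis), for AKI_PBS against sham (left) and AKI_PTPi_mEVs against AKI_PBS (right). Red points were higher, blue points lower and white points not past an adjusted p of 0.05, and bars are medians. The 10 genes and the Sprouty and Spred list lie mostly to the right on the left panel (medians 1.26 and 1.71) and to the left on the right panel (medians -1.14 and -1.40).

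By likeness of pattern, the genes closest to Dusp1 over the 9 libraries were Slc4a9, Zkscan14 and Plekhm2, with Pearson correlations of log2 CPM of 0.955, 0.941 and 0.938 among 11333 genes compared. Those closest to Dusp6 were Crnkl1, Dnajb9 and Ddx47, at 0.975, 0.968 and 0.964. These correlations run over libraries of 3 groups that share depth and tissue, so they describe these libraries only.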

How the data were processed

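RNA was extracted from kidney with phenol-chloroform and 100 ng went into Tn5-based libraries, per the labels' protocols. The authors deposited whole-number read counts per gene, made with STAR and HTSeq, per the submitters' processing notes (versions not given). Those notes name the human build GRCh38.p14, while all 56923 identifiers are mouse, so the build was not settled and gene positions come from GENCODE M21. The strand setting is not given in the sources used here. 52073 identifiers had a symbol, and 0 per-sample columns matched no library. The vesicle name in 1 sample title differs from the treatment label, which was used for grouping.

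In R 4.3.3, edgeR 4.0.16 fitted all 9 libraries together: filterByExpr (minimum count 10) left 17036 genes, with TMM factors, glmQLFit (robust) with a mean per group, and glmQLFTest. A gene was called where its p, adjusted by Benjamini-Hochberg over all tested genes, was under 0.05. Standard errors are the size of the log2 fold change over the root of the quasi-likelihood F. Alternatives used DESeq2 1.42.0, limma 3.58.1 (voom), other scalings and filters, a replicate block and each library left out. No pair of libraries in a group was a duplicate. Figures were drawn with matplotlib 3.10.9 in Python 3.11.15.

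The 10 genes and the lists were chosen with earlier results of these data known. Of 161 listed names 158 were matched (not Dusp29, Styxl2 and Spry3). Named beside the 10 genes are up to 4 genes per related list with the smallest adjusted p in a comparison with AKI_PBS, Ptpn1, and for Dusp1 and Dusp6 the 3 genes of most similar pattern (mean log2 CPM from 2 up). One gene that this rule names is not reported here. Exon lengths are unions over all annotated transcripts. Promoters are RefSeq's.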

Additional observations from a re-analysis of the deposited data

How the results depend on the processing

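Of 507 values for single genes of the 10 under 17 settings, 487 kept their direction and side of the threshold, 4 lost the threshold, 8 passed it and 8 turned sign, none of these a called value. AKI_PBS against sham called 6 to 8 members higher and 0 lower. AKI_PTPi_mEVs against AKI_PBS called 6 to 8 lower and 1 higher, and 6 were past a log2 fold change of 1. AKI_PTPi_mEVs against sham called 2 to 4 higher and, leaving out 1 library, 0 to 1 lower (0 without sham replicate 2, sham replicate 3 or AKI_PTPi_mEVs replicate 1). Signs turned for Dusp14 in AKI_PBS against sham (0.03 with library totals, -0.19 to 0.13 leaving out 1 library), Dusp6 in AKI_PTPi_mEVs against AKI_PBS (-0.31 to 0.19) and Spry2 in AKI_PTPi_mEVs against sham (0.02 with limma voom, -0.28 to 0.34 leaving out 1 library); the cause was not tested. Dusp5 was not tested under the stricter filter. Over all genes, AKI_PTPi_mEVs against sham called 1266 higher and 986 lower, 488 to 1917 and 390 to 1478 leaving out 1 library, and 1538 lower with only these groups fitted. Library totals moved the median of all genes in AKI_PTPi_mEVs against AKI_PBS from -0.03 to -0.133. Same-numbered libraries had correlated deviations of -0.187 to 0.111. With so few libraries in a group, these values cannot decide whether same-numbered samples were handled together, and the labels state no pairing. With a replicate block the counts were 7 higher and 0 lower, 1 higher and 8 lower, and 3 higher and 1 lower, in the same order of comparisons.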
